A study of Mus musculus with 8 samples.

Results

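The genes described here encode the proteins of the cytosolic ribosome in mouse liver. They were taken from the deposited table by symbol, as the Rpl and Rps genes, Rplp0 to Rplp2 and Rpsa, leaving out pseudogenes named with -ps and the ribosomal S6 kinases. This gave 84 of 21049 genes, 52 for the large subunit and 32 for the small subunit. RNA was sequenced from 8 wild-type C57BL/6 mouse samples labelled as liver, 4 from the saline control group and 4 from the alcohol-fed group. C57BL/6 is an inbred laboratory strain. No source used here gives dose, duration or age. The labels also name AML12, a mouse hepatocyte line, and hepatocyte as the cell type. Nothing in those sources says that each sample came from its own animal, so p-values measure the spread between samples, which may be technical.

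As background, the cytosolic ribosome reads messenger RNA on its small subunit and joins amino acids on its large subunit. Most of its proteins are needed in equal amounts, and cells make ribosomal proteins from messengers that are among the most abundant of all. Many of these messengers start with a C followed by a run of pyrimidines, the 5' terminal oligopyrimidine (5' TOP) tract, through which the kinase mTORC1 and the RNA-binding protein LARP1 set how strongly they are translated and how stable they are. The liver, which secretes most plasma proteins, is a tissue rich in ribosomes.

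Of the 84 genes, 82 are annotated as protein-coding in GENCODE M21, and their annotated transcripts were read on the GRCm38 build. A start of C followed by at least 4 pyrimidines (C or T) was found in at least 1 coding transcript of 22 of the 82 genes (26.8%), against 5.12% of all 21877 protein-coding genes. The 7 starts below are shown because they place genes that were higher in the alcohol group beside genes that were not. Each is the first 20 bases of a transcript, 5' to 3', and the capitals mark the C and the pyrimidine run.
Rpl4: CTTTTCCTgtgggagcagcc
Rps3: CCTTTCCTTTCagcggcgcg
Rps24: CTCTTTTCCTCCTCTCCagc
Rpl10: CTCTTTTCCTCTggcgcggt
Rpl32: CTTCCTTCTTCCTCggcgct
Rpl37a: CTCTTCggacttgggcttgg
Rps27: CCTTTCCggcggtgacgacc
They lie at chr9:64173375-64173394 (plus strand, Rpl4), chr7:99483632-99483651 (minus, Rps3) and chr14:24490718-24490737 (plus, Rps24). The others lie at chrX:74270857-74270876 (plus, Rpl10), chr6:115808728-115808747 (minus, Rpl32), chr1:72711290-72711309 (plus, Rpl37a) and chr3:90213629-90213648 (minus, Rps27). The first 3 genes passed the test as higher in the alcohol group and the last 4 did not, so an annotated tract was found on both sides. Among the genes tested, 7 of 22 with such a start were higher, with a median log2 change of 0.31. Of those where none was found, 19 of 58 were higher, with a median of 0.33, against 44.2% of all genes tested. The starts are annotated and were not measured here, and a start annotated 1 base off is missed. Genes where none was found may therefore carry a tract, and the counts cannot show what a tract does. Rpl3 and Rpl10a, which had the largest changes, have no annotated transcript with such a start.

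Levels are in FPKM, fragments scaled to gene length and library total. Comparisons between genes depend on the length used, which ran from 322 to 5136 bases over the tested members. The 8 libraries held 33872595 to 38407511 reads, with every alcohol total above every control total. Reads of alcohol 2 and 4 were the most alike of any pair within a group, with a chi-square of 10.1 per gene. The other pairs had 56.6 to 234, and sampling noise alone gives about 1. That value cannot tell whether alcohol 2 and 4 came from different animals. Both were kept as separate samples, and counts without them are given below. Summed markers of hepatocytes were 61178 to 72765 FPKM in control and 57066 to 66032 FPKM in alcohol samples. Of the 8 genes 2 were higher (Cps1 and Ass1) and 3 lower (Apoa1, Apoa2 and Ttr). Alb weighed most in the sums, with means of 36840 FPKM in control and 40291 FPKM in alcohol samples. Summed endothelial markers were 19.2 to 29.4 FPKM in control and 77.8 to 96.9 FPKM in alcohol samples (8 of 8 genes higher). Those of stellate cells were 43.2 to 74.5 FPKM and 107 to 156 FPKM (4 of 7 tested higher, 1 lower). Over all genes tested, 44.2% were higher and 13% lower. Summed Kupffer cell markers overlapped, at 21.1 to 76.8 FPKM and 26 to 48.8 FPKM (0 of 5 tested higher, 1 lower). Red blood cell markers overlapped too, at 179 to 362 FPKM and 122 to 196 FPKM (0 of 5 tested higher, 1 lower). Summed B cell markers were lower in every alcohol sample, at 3.47 to 4.31 FPKM in control and 1.3 to 1.79 FPKM in alcohol samples. Those of T cells (1.76 to 3.49 FPKM and 0.89 to 2.92 FPKM) and cholangiocytes (19.3 to 42.3 FPKM and 16.4 to 27 FPKM) overlapped. So did those of neutrophils, at 2.82 to 4.87 FPKM and 1.59 to 35.5 FPKM, the highest being alcohol 1. No marker present in the table was at 0 in every sample. The part of these cell types in the ribosomal protein values was not tested, and in whole tissue fewer cells of a type and less RNA per cell cannot be told apart.

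Summed over all 84 genes, ribosomal protein messengers reached 18391, 22216, 18695 and 21108 FPKM in control samples 1 to 4 and 20799, 32429, 20630 and 30543 FPKM in alcohol samples 1 to 4. Alcohol 2 and 4 lay above every control sample, and alcohol 1 and 3 lay inside the control range. The group means were 20102 ± 1861 FPKM (SD, n = 4) and 26100 ± 6267 FPKM (SD, n = 4), a ratio of 1.3, and the difference between the means was smaller than the SD of the alcohol group. As a share of all reads, the genes took 1.55%, 1.81%, 1.56% and 1.74% in control and 1.77%, 2.69%, 1.75% and 2.56% in alcohol samples.

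Both subunits showed the same order of samples. Large subunit genes summed to 10770, 12878, 10872 and 12388 FPKM in control and 12206, 18918, 12147 and 17902 FPKM in alcohol samples. Small subunit genes summed to 7621, 9337, 7822 and 8720 FPKM in control and 8593, 13511, 8483 and 12641 FPKM in alcohol samples. Both sums were highest in alcohol 2, with alcohol 4 next. The ratio of the large to the small subunit sum was nearly the same in every library, 1.40 ± 0.0195 (SD, n = 4) in control and 1.42 ± 0.0131 (SD, n = 4) in alcohol samples, and the ranges of the groups, 1.38 to 1.42 and 1.40 to 1.43, overlapped.

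**Figure D1:**
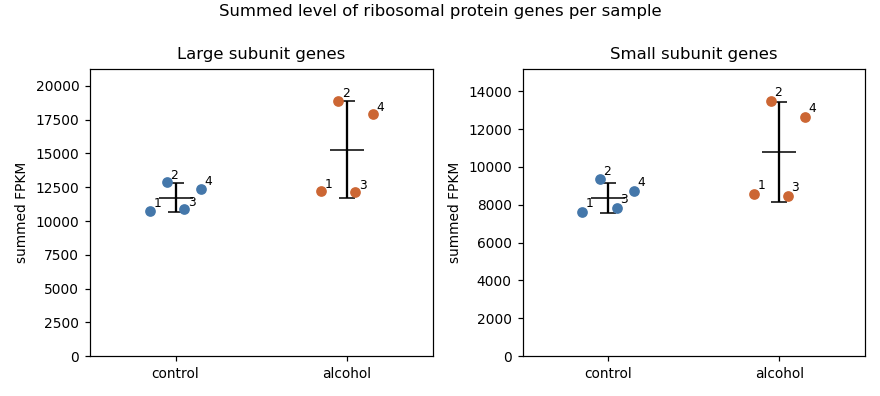
Summed FPKM of the large subunit genes (left) and small subunit genes (right) in each sample, with the replicate number beside each point; the line and bars give the mean and SD of 4 samples. In both panels alcohol 2 and 4 lie above every control sample, while alcohol 1 and 3 lie within the control range.

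Gene by gene, 81 of the 84 passed the minimum of a mean of 1 FPKM and were compared with limma on log2(FPKM + 1), adjusted over all 9228 genes tested. Of these 81, 26 (32.1%) were higher in the alcohol group and 0 lower, at an adjusted p below 0.05. Over all genes tested, 44.2% were higher and 13% lower. The share of ribosomal protein genes that passed the test as higher thus lay below that of all genes tested. At an unadjusted limma p below 0.05, in either direction, there were 32 of 81, among them Rps27l with a negative change. Over all genes tested there were 5729 of 9228. The median log2 change of the 81 genes was 0.32 against 0.24 for all genes tested, with a range of -0.46 to 1.10. Of the 81 changes 78 were positive, against 6351 of 9228 over all genes tested. The groups did not overlap, with alcohol higher, for 22 of 81 genes, against 39.5% of all genes tested, and with alcohol lower for 0, against 10.7%.

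By subunit, 13 of 49 large subunit genes (26.5%) and 13 of 32 small subunit genes (40.6%) were higher. Their median log2 changes were 0.31 and 0.41. The difference between the subunits was not tested, since the genes of a subunit are not replicates. The order of the shares rested on single samples, since without alcohol 2, or without alcohol 4, 12 large and 4 small subunit genes were higher, and without control 3 there were 11 and 4. The 13 large subunit genes were Rpl3, Rpl4, Rpl5, Rpl7l1, Rpl8, Rpl9, Rpl10a, Rpl12, Rpl13, Rpl13a, Rpl41, Rplp0 and Rplp2. The small subunit genes included Rps3, Rps3a1, Rps4x, Rps6, Rps7, Rps10, Rps15a, Rps24, Rps26, Rps27a and Rpsa.

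**Figure D2:**
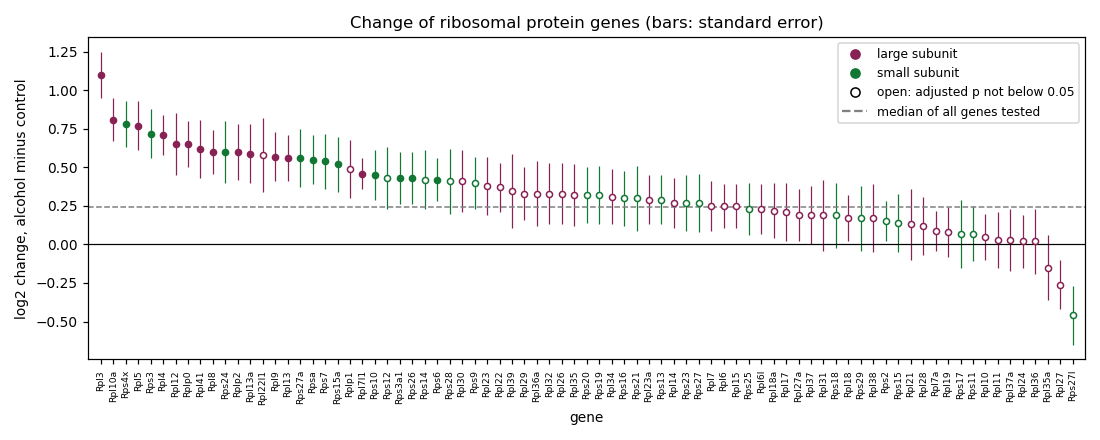
Log2 change (alcohol minus control, on log2(FPKM + 1)) of 79 of the 81 tested genes in order, with its standard error; filled points passed an adjusted p of 0.05 in limma, open points did not. The points run from 1.10 for Rpl3 to -0.46 for Rps27l, and the dashed line marks the median of all genes tested, 0.24.

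These counts depended on how the libraries were scaled and on alcohol 2 and 4. Median-of-ratios scaling moved the median of all genes from 0.24 to 0.00, and then 7 ribosomal protein genes were higher and 2 lower, against 25.9% and 26.5% of all genes. After a trend on gene length was removed within each library, 72 were higher and 0 lower, against 44.5% and 12.4% of all genes. That trend was fitted on the other genes. Over the members, Pearson's r of log2 change with log2 length was 0.08 before its removal and -0.52 after it. The removal thus gave shorter members the larger changes, with medians of 0.81 at or under the median length and 0.59 above it. On the TPM scale 55 were higher and 0 lower, against 52.7% and 8.82% of all genes, and with quantile normalization 37 and 0, against 24.1% and 25%. Without alcohol 2 and 4, 10 were higher and 3 lower, against 38.2% and 11.9% of all genes, and the medians became -0.02 for the large and 0.04 for the small subunit.

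The members are short genes, with a median length of 839 bases against 3187 for the other genes tested. The other genes under 1000 bases took 7.37% to 10.4% of the reads in control and 5.35% to 6.85% in alcohol samples, and those groups did not overlap. A share of reads weighs abundant genes most, among them Apoa1 and Apoa2 (988 and 936 bases), both called lower. The median log2 deviation of these short genes from the gene mean did overlap, at -0.13 to 0.28 in control and -0.29 to 0.08 in alcohol samples. Among the members, 17 of 40 above the median length were higher, and 9 of 41 at or below it. The part of gene length in these counts was not tested beyond the alternative with the length trend removed.

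The largest change was that of a large subunit gene. Rpl3, whose protein reaches close to the site of peptide bond formation, had 235, 178, 165 and 147 FPKM in control and 378, 415, 350 and 391 FPKM in alcohol samples. The lowest alcohol sample was well above the highest control sample, and alcohol 1 and 3 lay close to 2 and 4. Its mean went from 181 ± 37.9 to 384 ± 27.1 FPKM (SD, n = 4 each), a log2 change of 1.10 (SE 0.15, limma adjusted p = 0.000156). Rpl3 was higher in all 22 fits run, with limma adjusted p-values of 3.98e-05 to 0.0111 over the alternatives, and without alcohol 2 and 4 its log2 change was 1.02. Relative to the median ribosomal protein gene of each library it was still higher, by 0.78. The gene lies at chr15:80077791-80091868 on the minus strand of GRCm38.

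Rpl10a, a protein of the L1 stalk through which spent transfer RNA leaves, had 206, 183, 180 and 189 FPKM in control and 284, 390, 286 and 386 FPKM in alcohol samples. Its log2 change was 0.81 (SE 0.14, limma adjusted p = 0.000649). All 4 alcohol samples exceeded all 4 control samples, and alcohol 2 and 4 were well above 1 and 3. Like Rpl3, Rpl10a was higher in all 22 fits, and relative to the median ribosomal protein gene the limma adjusted p-values of Rpl3 and Rpl10a were 0.0111 and 0.047.

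Rps4x, an X-linked small subunit protein, had 205, 175, 174 and 168 FPKM in control and 254, 373, 267 and 359 FPKM in alcohol samples, with no overlap. Its log2 change was 0.78 (SE 0.15, limma adjusted p = 0.00136), and 21 of 22 fits called it higher. The exception was the scaling to the median ribosomal protein gene, with a limma adjusted p of 0.0707 (over the alternatives, 0.000212 to 0.0707).

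Rpl5 and Rpl11 bind 5S ribosomal RNA together, enter the large subunit as 1 particle, and outside the ribosome hold back Mdm2, the ligase that degrades p53. Rpl5 had 133, 122, 107 and 110 FPKM in control and 168, 243, 162 and 251 FPKM in alcohol samples, a log2 change of 0.77 (SE 0.16, limma adjusted p = 0.00229). Rpl11 had 145, 194, 144 and 170 FPKM in control and 134, 213, 130 and 199 FPKM in alcohol samples, a log2 change of 0.03 (SE 0.18, limma adjusted p = 0.907). Every alcohol sample of Rpl5 exceeded every control sample, while alcohol 1 and 3 of Rpl11 lay below every control sample and alcohol 2 and 4 above. The difference between the pair was not tested. Exons of Rpl5, Rpl10a, Rpl12 and Rps27a overlap another gene on the opposite strand, and those of Rpl13a, Rps10 and Rpl36al one on the same strand. Whether the counting used strand is not stated, so reads of such overlaps cannot be told apart.

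The P stalk, which recruits the elongation factors, is built from Rplp0, Rplp1 and Rplp2 on a base that includes Rpl12. Of these 4 genes 3 were higher, against 44.2% of all genes tested. The count was 0 with median-of-ratios scaling and relative to the ribosomal protein genes, and 1 outside the 100 most abundant genes or without alcohol 2 and 4. Rplp0 had 309, 247, 267 and 273 FPKM in control and 356, 518, 373 and 495 FPKM in alcohol samples, a log2 change of 0.65 (SE 0.15, limma adjusted p = 0.00373). Rplp2 and Rpl12 had log2 changes of 0.60 and 0.65 (SE 0.18 and 0.20, limma adjusted p = 0.0156 and 0.0155). For Rpl12 alcohol 3, at 326 FPKM, lay just below control 2, at 327 FPKM, so the groups overlapped, and in Rplp0 and Rplp2 they did not. Without alcohol 2 and 4, Rplp0 was still higher (0.42, limma adjusted p = 0.0345), and Rplp2 and Rpl12 no longer passed, at 0.27 and 0.34 (limma adjusted p = 0.129 and 0.155). Rplp1, the ribosomal protein messenger with the highest mean FPKM, had 765, 820, 646 and 777 FPKM in control and 810, 1438, 845 and 1231 FPKM in alcohol samples. Its log2 change of 0.49 did not pass (SE 0.19, limma adjusted p = 0.0514).

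Around the exit tunnel, through which the new protein leaves, 1 of 9 genes was higher, against 44.2% of all genes tested. That gene was Rpl4, which reaches into the tunnel wall, with 331, 282, 263 and 285 FPKM in control and 424, 522, 418 and 549 FPKM in alcohol samples, a log2 change of 0.71 (SE 0.13, limma adjusted p = 0.00117). The other 8, Rpl17, Rpl19, Rpl22, Rpl23a, Rpl26, Rpl31, Rpl35 and Rpl39, had log2 changes of 0.08 to 0.37. The count was also 1 with median-of-ratios scaling or without alcohol 2 and 4. With the length trend removed 7 of the 9 were higher, against 44.5% of all genes. Rpl39, a small protein of the tunnel wall, had 303 ± 66.3 FPKM in control and 398 ± 141 FPKM in alcohol samples (SD, n = 4 each). Its groups overlapped, and its limma adjusted p was 0.242.

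On the small subunit, 1 of 4 proteins at the messenger entry and decoding site was higher, against 44.2% of all genes tested. This was Rps3, which lies at the entry channel and also takes part in DNA repair, with 147, 135, 117 and 120 FPKM in control and 182, 272, 171 and 247 FPKM in alcohol samples, a log2 change of 0.72 (SE 0.16, limma adjusted p = 0.00327). Rps2, Rps15 and Rps23 had log2 changes of 0.15, 0.14 and 0.27 and did not pass. The count was also 1 with median-of-ratios scaling or without alcohol 2 and 4, and 4 with the length trend removed. Rps2, the most abundant of the 4, had 559 ± 17.4 FPKM in control and 623 ± 84.6 FPKM in alcohol samples (SD, n = 4 each), and alcohol 1 and 3 lay inside the control range.

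At the messenger exit side, 2 of 4 genes were higher, against 44.2% of all genes tested. The count was 0 with median-of-ratios scaling, outside the 100 most abundant genes, relative to the ribosomal protein genes or without alcohol 2 and 4. It was 1 without alcohol 2, without alcohol 4, without any single control sample, and with a minimum of 5 FPKM or none. With the length trend removed it was 4. Rpsa, which is also a cell surface laminin receptor, had 241, 269, 229 and 273 FPKM in control and 295, 447, 320 and 440 FPKM in alcohol samples, a log2 change of 0.55 (SE 0.16, limma adjusted p = 0.0119). Without alcohol 2 and 4 Rpsa no longer passed, at 0.29 (limma adjusted p = 0.114; the alternatives spanned 0.00122 to 0.356). Rps26 had a log2 change of 0.43 (SE 0.17, limma adjusted p = 0.0491), with alcohol 1 at 398 FPKM inside a control range of 346 to 416 FPKM, and 9 of 22 fits called it higher (limma adjusted p = 9.6e-05 to 0.685 over the alternatives). Rps14 and Rps28 had log2 changes of 0.42 and 0.41 and did not pass (limma adjusted p = 0.08 and 0.117). Rps6, the substrate of the S6 kinases that act downstream of mTORC1, had 201, 217, 213 and 228 FPKM in control and 244, 316, 248 and 356 FPKM in alcohol samples. Its log2 change was 0.42 (SE 0.14, limma adjusted p = 0.0246), with no overlap between the groups. It was called higher in 14 of 22 fits (limma adjusted p = 0.000603 to 0.732 over the alternatives), and without alcohol 2 and 4 it missed the threshold, at 0.20 (limma adjusted p = 0.22).

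Rps27a and Fau encode a ribosomal protein joined to ubiquitin or a ubiquitin-like protein, and Fau falls outside the symbols chosen. Rps27a had 184, 204, 159 and 190 FPKM in control and 234, 340, 191 and 349 FPKM in alcohol samples, a log2 change of 0.56 (SE 0.19, limma adjusted p = 0.0286). Of 22 fits, 12 called Rps27a higher (limma adjusted p = 0.000541 to 0.355 over the alternatives), and without alcohol 2 and 4 its change of 0.21 did not pass (limma adjusted p = 0.285). Fau had a log2 change of 0.20 (limma adjusted p = 0.29). Rack1, a scaffold protein bound to the small subunit and also outside the symbols chosen, had 250, 229, 232 and 238 FPKM in control and 308, 465, 329 and 425 FPKM in alcohol samples. It was higher, with a log2 change of 0.66 (SE 0.14, limma adjusted p = 0.00274).

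The 5 genes with the highest mean FPKM were Rplp1, Rpl41, Rpl10, Rps2 and Rpl28. Rpl41, the shortest of the ribosomal proteins, had 637, 632, 537 and 577 FPKM in control and 707, 1142, 734 and 1182 FPKM in alcohol samples and was higher, by 0.62 (SE 0.19, limma adjusted p = 0.0156). Rpl10, which completes the large subunit, had 638, 762, 679 and 765 FPKM in control and 630, 879, 637 and 812 FPKM in alcohol samples, a log2 change of 0.05. Rpl28 had 544 ± 97.2 FPKM in control and 597 ± 141 FPKM in alcohol samples (SD, n = 4 each), a log2 change of 0.12. Of these 5 genes, Rpl41 alone passed the test, and its alcohol samples 2 and 4 were the highest by a wide margin. Without these 2 samples Rpl41 missed the threshold, at 0.28 (limma adjusted p = 0.138; the alternatives spanned 0.000175 to 0.219). Across the members, Spearman's rho between log2 change and mean level was 0.03 over 81 genes, which share libraries and are not independent.

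Alcohol 2 and 4 were both above alcohol 1 and 3 in 80 of the 81 tested members, and in 28.5% of the other 9144 genes tested that had a recovered length. Most of those 9144 were longer than the members. The other genes under 1000 bases had the same order at the median. Their log2 deviation from the gene mean was 0.08 and 0.03 in alcohol 2 and 4, and -0.24 and -0.29 in alcohol 1 and 3. Longer genes had 0.11 and 0.12 against 0.15 and 0.14. The mean of alcohol 2 and 4 was 1.52 times that of alcohol 1 and 3 at the median, from 0.966 for Rpl7l1 to 1.82 for Rpl39. Next to Rpl7l1, Rpl3 differed least, at 1.11 times. The median correlation between pairs of members was 0.872 over 8 samples, and 72 of 81 had a Pearson's r over 0.8 with the median member. The lowest were Rps27l (0.177), Rpl27 (0.344), Rpl7l1 (0.465) and Rpl3 (0.556). Summed markers also differed between these pairs of libraries, with hepatocyte markers at 57066 and 58644 FPKM in alcohol 2 and 4 and 60492 and 66032 FPKM in alcohol 1 and 3. Stellate cell markers were at 140 and 156 FPKM against 110 and 107 FPKM, and endothelial markers at 96.9 and 93.2 FPKM against 77.8 and 87.2 FPKM. Their part in the order of the samples was not tested.

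**Figure D3:**
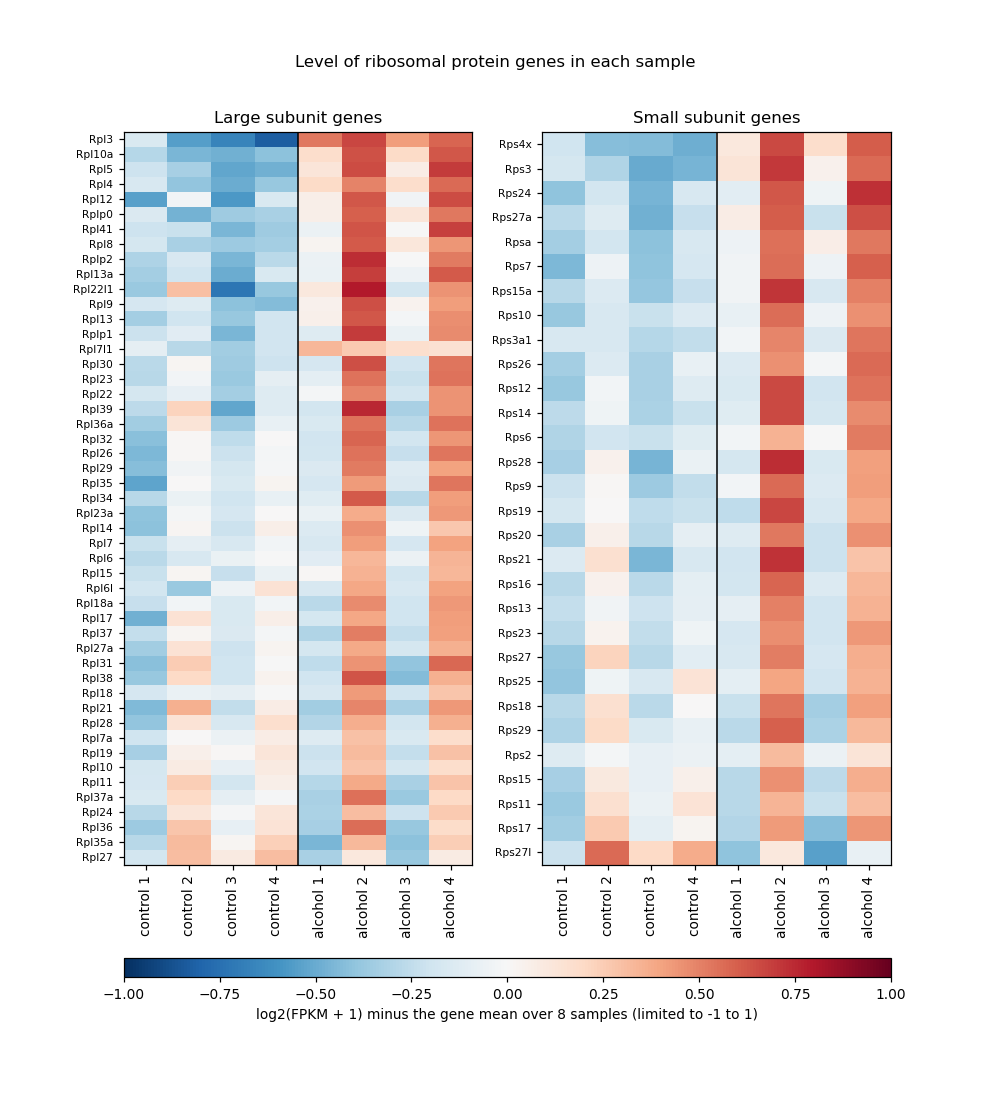
Level of 79 of the 81 tested genes in each of the 8 samples as log2(FPKM + 1) minus the gene's mean, large subunit genes on the left and small on the right, ordered by log2 change. The columns of alcohol 2 and 4 are red for most genes, those of alcohol 1 and 3 lie near the controls, and Rpl3, Rpl7l1, Rpl27 and Rps27l depart from that pattern.

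A few ribosomal proteins are encoded by a pair of similar genes, and a single scale factor per library cancels in the ratio of the pair. A trend on gene length does not cancel where the lengths differ, so the values with it removed are given below. That removal left shorter members with larger changes, as given above. Shares are of FPKM, so they also depend on lengths such as 2748 bases for Rps27l and 346 for Rps27. Of 9 pairs set out, Rpl10l and Rps4l are not in the table, and Rpl3l and Rpl39l were near 0 in every sample. Rpl3l, the muscle form of Rpl3, had 0 to 0.103 FPKM (0 to 7 reads). Rpl39l, the testis form of Rpl39, had 0 to 0.134 FPKM (0 to 4 reads). Neither gives a fold change. The third member under the minimum, Rpl32l, is annotated as a processed pseudogene and had 0.0974 to 0.349 FPKM in control and 0.309 to 0.728 FPKM in alcohol samples, from 2 to 16 reads.

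The remaining 5 pairs were compared by an exact 2-sided permutation test over all 70 assignments, whose smallest possible p is 0.0286, adjusted over the 5 pairs. Rps27l, a p53-induced paralog of the small subunit gene Rps27, made up 14.6%, 16.3%, 17.7% and 17.6% of the pair in control and 11.4%, 10.4%, 10.5% and 10.1% in alcohol samples. Every alcohol sample lay below every control sample. The log2 ratio of Rps27l to Rps27 differed by -0.73 (exact permutation p = 0.0286, adjusted 0.0714), which did not pass after adjustment. Leaving out any 1 sample gave differences of -0.80 to -0.69, and removing the length trend -1.37. Rps27l alone had 50.8, 88.1, 68.3 and 76.8 FPKM in control and 44.5, 64, 40.3 and 56.2 FPKM in alcohol samples, a log2 change of -0.46 (SE 0.19, limma adjusted p = 0.056). It was called lower in 8 of 22 fits and higher in 0, and relative to the median ribosomal protein gene it was lower by 0.78 on the log2 scale (limma adjusted p = 0.00427; the alternatives spanned 0.00427 to 0.153). Rps27 had log2 0.27 (SE 0.19, limma adjusted p = 0.243).

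Rpl36al, a close copy of Rpl36a that falls outside the symbols chosen, made up 56.2%, 55.9%, 61.8% and 59% of the pair in control and 51.1%, 47.6%, 53.9% and 46.6% in alcohol samples. Here too the groups did not overlap. The log2 ratio differed by -0.49 (exact permutation p = 0.0286, adjusted 0.0714), which did not pass, and by -0.51 with the length trend removed. The log2 changes of the 2 genes were -0.16 for Rpl36al and 0.33 for Rpl36a, and neither passed. Reads of near-identical copies may be split between them by the counting, of which no source used here gives the method.

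Rpl7l1, a nucleolar relative of Rpl7 that acts in large subunit assembly, had 21.7, 19, 18 and 20.2 FPKM in control and 29.5, 28, 26.2 and 25.9 FPKM in alcohol samples, a log2 change of 0.46 (SE 0.10, limma adjusted p = 0.00235). Its groups did not overlap, and alcohol 1 was its highest sample. The share of Rpl7l1 in its pair with Rpl7 was 5.11 ± 0.561% in control and 6.01 ± 1.43% in alcohol samples (SD, n = 4 each), with overlap (log2 ratio difference 0.20, exact permutation p = 0.343, adjusted 0.429). Leaving out 1 sample at a time gave 0.08 to 0.32, and removing the length trend reversed the sign, to -0.13.

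Rpl22l1, which can stand in for Rpl22, had 91.2, 146, 71.2 and 90.6 FPKM in control and 127, 206, 104 and 162 FPKM in alcohol samples. Its log2 change of 0.58 did not pass (SE 0.24, limma adjusted p = 0.0609). By FPKM it was the larger part of its pair in every sample, at 68.2 ± 4.94% in control and 71.4 ± 1.99% in alcohol samples (SD, n = 4 each), with overlap (log2 ratio difference 0.22, exact permutation p = 0.343, adjusted 0.429). That lead rests on the lengths used, 486 bases for Rpl22l1 and 2208 for Rpl22. Reads were 1201 to 3710 for Rpl22l1 and 3053 to 5879 for Rpl22. Rps27rt, a further copy of Rps27, held 5.63 ± 0.926% and 5.21 ± 0.779% of its pair (exact permutation p = 0.514, adjusted 0.514). Rpl6l, annotated as a processed pseudogene, held 11.9 ± 1.14% and 11.8 ± 0.616% of its sum with Rpl6, and that pair was added after the data were seen. With the length trend removed, the log2 ratio differed by 0.69 for Rpl22l1 and by -0.14 for Rps27rt.

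**Figure D4:**
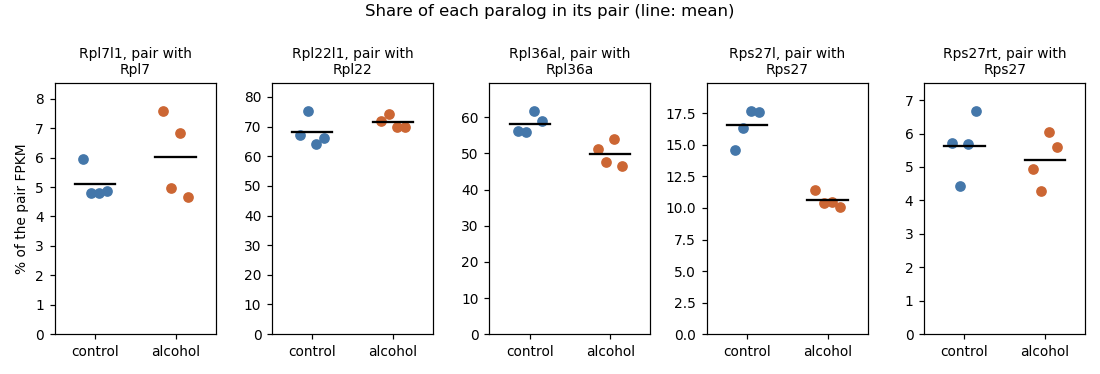
Share of each paralog in the summed FPKM of its pair, in % on axes that start at 0, with 4 control and 4 alcohol samples per panel and a line at each mean. The points of Rpl36al and Rps27l do not overlap between groups (58.2% and 49.8%, 16.6% and 10.6% on average), and those of Rpl7l1, Rpl22l1 and Rps27rt do.

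Besides Rps27l, negative log2 changes were found for Rpl27 and Rpl35a, both chosen here after their values were seen. Rpl27 had 139, 196, 168 and 196 FPKM in control and 126, 170, 121 and 167 FPKM in alcohol samples, a log2 change of -0.26 (SE 0.16, limma adjusted p = 0.181). It was called lower in 3 of 22 fits and higher in 0. Rpl35a had a log2 change of -0.15 (SE 0.21, limma adjusted p = 0.552) and was called lower in 2 of 22 fits. In both, alcohol 1 and 3 lay below every control sample, and alcohol 2 and 4 lay among or above the controls. Relative to the median ribosomal protein gene of each library, 3 members were higher (Rpl3 and Rpl10a among them) and 3 lower (Rps27l, Rpl27 and Rpl35a), against 6.36% and 13.6% of all genes.

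Other genes of the translation apparatus were counted in the same fit, where 44.2% of all genes were higher and 13% lower, with a median log2 change of 0.24. Of 15 other messengers known for a 5' TOP tract, 9 were higher and 0 lower, with a median log2 change of 0.42. Among them were Eif3a (1.03), a scaffold of initiation, and Eef1g (0.58), an elongation factor subunit. With median-of-ratios scaling 3 of the 15 were higher and 1 lower, against 25.9% and 26.5% of all genes. Of 7 non-coding hosts of small nucleolar RNAs with such a tract, 4 were higher, with a median of 0.81. With median-of-ratios scaling 4 of the 7 were higher and 0 lower. Snhg1 had 20.7, 25.5, 12.8 and 18.6 FPKM in control and 106, 62.9, 49.4 and 72.3 FPKM in alcohol samples, a log2 change of 1.84 (limma adjusted p = 0.00013). Snhg12, Snhg5 and Snhg6 had log2 changes of 1.66, 1.50 and 0.81. For Snhg1 alcohol 1, not alcohol 2, was the highest sample, unlike most ribosomal protein genes.

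Of 43 ribosome assembly factors, which modify, cut and export the precursors of the subunits, 33 (76.7%) were higher and 0 lower, with a median log2 change of 0.65. Gar1, which guides pseudouridine formation in ribosomal RNA, had 3.08, 2.45, 2.78 and 3.1 FPKM in control and 12.2, 12.7, 8.73 and 11.4 FPKM in alcohol samples, a log2 change of 1.66 (limma adjusted p = 3.49e-06). Nle1, Rrp12 and Wdr43, which act in maturation of the large subunit, export and processing of the small subunit precursor, had log2 changes of 1.26, 1.23 and 1.36. In these 4 genes all alcohol samples exceeded all control samples. With median-of-ratios scaling 26 of the 43 were higher and 3 lower, against 25.9% and 26.5% of all genes, and without alcohol 2 and 4 there were 32 higher and 1 lower, against 38.2% and 11.9%.

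Of 14 genes for RNA polymerase I and its factors, which transcribe ribosomal RNA, 11 were higher and 0 lower, with a median of 0.51. Polr1g (0.84) and Polr1f (1.07) led these. With median-of-ratios scaling 6 of the 14 were higher and 0 lower, against 25.9% and 26.5% of all genes. Of 6 chaperones dedicated to single ribosomal proteins, 2 were higher. They were Grwd1 (0.86), a chaperone of Rpl3, which had 3.85, 3.02, 4.21 and 3.3 FPKM in control and 7.74, 7.32, 7.3 and 6.82 FPKM in alcohol samples, and Heatr3 (1.00), which serves Rpl5. The remaining 4, Tsr2, Pdcd2, Pdcd2l and Bccip, had log2 changes of -0.14 to 0.03. The median of the 6 was 0.02.

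Of 18 genes of mTORC1 and 5' TOP control, 9 (50%) were higher and 1 lower, with a median of 0.30, close to the 44.2% higher and the median of 0.24 of all genes. Ddit4, an inhibitor of mTORC1, had 1.83, 3.35, 1.18 and 2.28 FPKM in control and 31.7, 10.8, 29.9 and 8.79 FPKM in alcohol samples, a log2 change of 2.59 (limma adjusted p = 0.000277). Here alcohol 1 and 3 were the high samples, the opposite order to the ribosomal protein genes. Sesn2, which senses leucine upstream of mTORC1, Larp1 and Mlst8, a subunit of mTORC1, were higher by 1.43, 0.85 and 0.62, and Eif4ebp3, a repressor of cap-dependent initiation, fell by 0.92. Of 9 genes that handle stalled ribosomes, 6 were higher and 0 lower, with a median of 0.46. Among them were Hbs1l (0.96), Zfp598 (0.73), Gcn1 (0.66) and Abce1 (0.53). With median-of-ratios scaling 4 of these 9 were higher and 0 lower. Of the 18 genes of mTORC1 and 5' TOP control, 6 were then higher and 2 lower, against 25.9% and 26.5% of all genes.

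**Figure D5:**
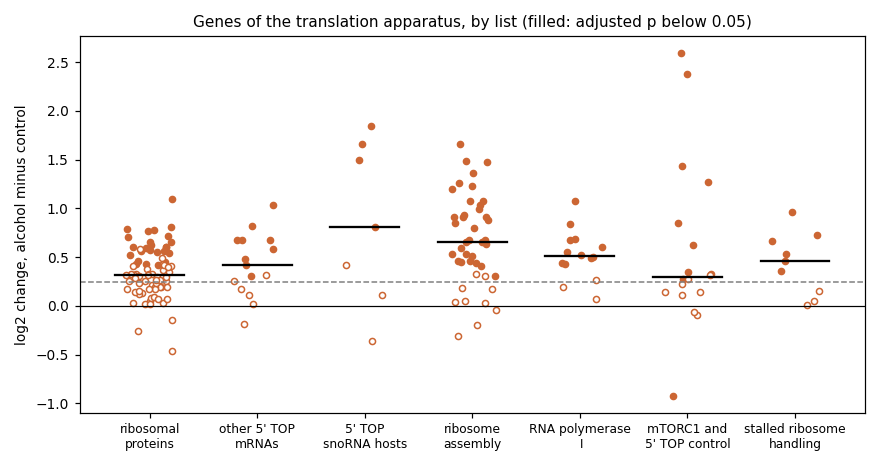
Log2 change (alcohol minus control) of the tested genes of each list, 1 point per gene, filled where the limma adjusted p is below 0.05, with a bar at each list's median and a dashed line at the median of all genes tested, 0.24. The ribosomal proteins have a median of 0.32 and run from -0.46 to 1.10, and the assembly factors have a median of 0.65 and run from -0.31 to 1.66.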

How the data were processed

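The authors deposited 1 table of FPKM values, 21049 gene symbols by 8 samples. Per the labels' protocols, column-purified total RNA went into SMARTER mRNA libraries. The submitters' processing notes name the builds GRCm38 and mm10. Aligner, counter, annotation and strand setting were not given in the sources used here. All 8 samples carry 1 batch label. The FPKM steps of 21042 genes gave back library totals, gene lengths and whole reads, to a tolerance of 1e-06 of a read. These serve for depth, gene length and shares of reads. The groups were compared with limma 3.58.1 (R 4.3.3) on log2(FPKM + 1), with a variance trend, for the 9228 genes whose mean reached 1 FPKM. P-values were 2-sided and adjusted by Benjamini-Hochberg over those genes, at a threshold of 0.05. This scale understates changes of low genes. FPKM divides by the library total, so abundant transcripts move all other values.

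Alternatives were other scalings (median of ratios, TPM, quantiles, genes outside the 100 most abundant), a length trend removed (spline with 4 degrees of freedom), a pseudocount of 0.1, minimums of 5 FPKM or none, no variance trend, a replicate block and leaving out each sample. Added after the data were seen were treating alcohol 2 and 4 apart (left out, or as 1 sample), scaling to the median ribosomal protein gene, Rpl6l, and paralog ratios with the length trend removed. The fit was tested on simulated data. Members and lists were chosen with earlier results of these data known. Genes were named by rule, as the 6 largest called changes each way, the 5 most abundant members, paralog pairs, role lists, Rps6 and up to 4 called genes of smallest p per other list. Some genes that meet this rule are not reported here. Exons of 22 members overlap another gene, 18 on the opposite strand only.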

Additional observations from a re-analysis of the deposited data

Results flagged for a closer look

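In 230 groups of 4 samples checked for a sample far from the others, 8 (3.48%) were found, where chance gives about 1 in 20. None was a ribosomal protein gene. Snhg12 was low in control 3, at 10.1 FPKM against 11.9 to 12.1 in the other controls. Snhg5 was high in alcohol 1, at 12.9 FPKM against 8.55 to 9.27. Nle1 was low in alcohol 3, at 4.61 FPKM against 5.16 to 5.22, and Wdr43 was high in alcohol 1, at 19.6 FPKM against 14.9 to 15.7. Control 1 was high for 4 genes, with Heatr3 at 7.64 FPKM against 4.25 to 4.65, Polr1f at 3.14 FPKM against 2.43 to 2.54, Polr1a at 3.23 FPKM against 2.42 to 2.55, and Gcn1 at 4.48 FPKM against 2.6 to 2.89.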

How the results depend on the processing

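The main counts were 26 of 81 higher and 0 lower, against 44.2% and 13% of all genes. Shares of all genes are also given above for the length trend removed and without alcohol 2 and 4. The same holds for median-of-ratios, TPM, quantile and ribosomal protein scaling. For the other alternatives no such share is given, so their counts do not set the members apart from other genes. The counts higher and lower were 7 and 2 with median-of-ratios scaling, 12 and 1 outside the 100 most abundant genes, 3 and 3 relative to the ribosomal protein genes, 10 and 3 without alcohol 2 and 4, and 16 and 1 with that pair as 1 sample. Those higher numbered 55 on the TPM scale, 72 with the length trend removed and 17 with no minimum. Of the large subunit genes, 4, 2 and 7 were higher with median-of-ratios, scaling to the ribosomal protein genes and without alcohol 2 and 4, with 1, 2 and 2 lower. Of the small subunit genes, 3, 1 and 3 were higher and 1, 1 and 1 lower. TPM gave 30 large and 25 small, the length trend 43 and 29, and quantiles 20 large. For the small subunit, no minimum gave 5, outside the top 100 gave 3 higher and 1 lower, and alcohol 2 and 4 as 1 sample 4 and 1. The medians, 0.31 and 0.41, became 0.01 and 0.11 (median of ratios), 0.60 and 0.76 (length trend), -0.01 and 0.09 (ribosomal protein scaling) and -0.02 and 0.04 (without alcohol 2 and 4). Leaving out 1 sample gave 15 to 36 higher and 0 to 1 lower, 11 to 20 large and 4 to 16 small higher, with 0 to 0 large and 0 to 1 small lower, and medians of 0.18 to 0.43 and 0.25 to 0.50. The count was 16 without alcohol 2 or without alcohol 4, and 15 without control 3. For the small subunit it was 4 without alcohol 2, alcohol 4 or control 3 and 7 without control 1 or control 4, and for the large subunit 20 without alcohol 3. With the length trend removed, Rpl36al reversed to 0.35 (limma adjusted p = 0.00435), and the ratio differences became -0.13 for Rpl7l1 (reversed), 0.69 for Rpl22l1 and -1.37 for Rps27l. The causes were not tested. The planned edgeR and DESeq2 fits on recovered reads were run. Both called far fewer members higher than the 26, nearer to the count with median-of-ratios scaling. Their values are not printed, since the deposited values are FPKM and not counts.

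Replicate numbers were not taken as pairing the samples, since of the same-numbered correlations of deviations, 0.349, 0.216, 0.071 and 0.28, 1 was not over 0.1. Other pairs gave -0.425 to 0.29, and controls 2 and 3 correlated best with another number. With a replicate block, 44 were higher, 26 of them large, and 1 small subunit gene was lower. No share of all genes is given for that fit. Over 69 named genes and the alternatives, 1295 results kept direction and side of the threshold, 76 lost the call, 68 gained it and 1 reversed.

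Depth did not limit the tested members, since 80 had over 1000 reads in every sample and the lowest had 585, but 3 members were too low to compare.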
